A study of Caenorhabditis elegans with 80 samples.

Results

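The genes described here are nspc-16, nspc-17, nspc-18 and nspc-19, 4 neighbouring genes of the nematode-specific peptide family, group c (nspc), in whole Caenorhabditis elegans. They were taken by name from the 46904 genes of a count table, and the name list had been selected on their lower levels at older ages in N2 worms. Values with age are therefore given as a description, without a test. Those of the mutant strain come from other libraries than the time course, and were tested. The genes were chosen with earlier results of these data known, so these p-values may not be independent of that choice. All 4 passed the filter on low counts in both comparisons. The family holds 14 other nspc genes in the same table, which serve for comparison.

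The tested strain was CF1038, which carries the daf-16 allele mu86, with 20 libraries at day 6, and it was set against 30 N2 wild-type libraries at day 6 (N2 set 2). A separate time course of N2 had 6 libraries each at days 6, 8, 11, 14 and 18. All groups were hermaphrodites kept at 20 °C on agar plates with the OP50-1 strain of E. coli and streptomycin, and FUDR, a drug that blocks DNA synthesis and so the growth of progeny, was added for all of them. Each library came from a frozen pellet of washed worms, so it pools animals and all tissues, and fewer cells of a type cannot be told apart from less RNA per cell. Nothing in the labels says whether libraries of a group came from separate cultures, so p-values measure the spread between these libraries, which may be technical.

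DAF-16 is the FOXO transcription factor at the end of the insulin-like signalling pathway. When the insulin receptor DAF-2 is quiet, DAF-16 enters the nucleus and turns on genes of stress resistance and long life, and worms without it age early. The nsp groups (nspa to nsph) are short predicted peptides named for being found in nematodes. The files and the annotation give no function for the group c peptides, and none is assumed here.

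In the WBcel235 annotation all 18 nspc genes lie on chromosome X in 3 tight groups. The left group has 7 genes between 8534672 and 8542283, the middle group has 6 genes between 12342946 and 12361159, and the right group has 5 genes between 14523575 and 14530207. The right group starts with the 4 genes described here, which together span 5.54 kb, and ends with nspc-20. The gene nspc-16 (WBGene00008357) lies at chrX:14523575-14524021 on the plus strand and nspc-17 (WBGene00008359) at chrX:14524754-14525181 on the minus strand. They are followed by nspc-18 (WBGene00008358) at chrX:14527170-14527659 on the minus strand and nspc-19 (WBGene00008360) at chrX:14528699-14529114 on the plus strand. The gaps between them are 732, 1988 and 1039 bases, no other annotated gene overlaps any of them, and nspc-20 (WBGene00008356, chrX:14529788-14530207, minus strand) begins 673 bases beyond nspc-19.

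The 5 right-group genes share a structure that differs from that of the other 13 nspc genes. Each has 2 exons, with 309 coding bases, or 103 codons without the stop, of which 6 bases lie in the first exon. The 13 genes of the left and middle groups also have 2 exons but 303 coding bases, with 3 coding bases in the first exon. Introns of the 4 genes are 42 bases long in nspc-16 and 46 bases in the other 3. The longest 5′ untranslated region among them, 90 bases, is that of nspc-18, against 28 bases in nspc-16, 28 in nspc-17 and 18 in nspc-19.

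Close copies can share sequencing reads, and the counts show how much of that the authors' counting had to settle. RSEM, the counting tool named in the submitters' processing notes, splits a read that matches several genes into fractions, so a count that is not whole marks shared reads. The count was not whole in 100% of the libraries with any nspc-16 read and in 98.7% of those with any nspc-19 read. For nspc-17 it was 30.4% and for nspc-18 it was 12.5%. Among all values above 0 in the table, 6.48% were not whole. A whole count does not show that no read was shared. Because of the split reads, the sum of the 4 genes, which does not depend on how reads were split among them, is given beside each gene. Reads split with nspc-20 or with the other groups would still affect that sum.

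Library totals were 34443150 to 44161451 counts, and no 2 libraries held identical values. Levels are given as CPM, read counts scaled to a library total of 1000000. The mutated gene daf-16 had 71.6 to 105 CPM in the 20 CF1038 libraries and 126 to 199 CPM in the 30 N2 libraries of set 2, with no overlap, so the strain labels matched its level.

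CF1038 worms at day 6 had more RNA of each of the 4 genes than N2 worms of the same age, by 1.56-fold (nspc-17) to 2.13-fold (nspc-18). All 4 rose. Their neighbour nspc-20, and every gene of the left group, did not pass the test, and the genes of the middle group that passed it had smaller values.

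For nspc-18 the lowest, median and highest of the 20 CF1038 libraries were 15.3, 19.6 and 28 CPM, and those of the 30 N2 libraries were 6.93, 9.37 and 15.7 CPM. The ranges met only at their edges, with 18 of 20 CF1038 libraries above every N2 library. The log2 fold change, CF1038 over N2, was 1.09 (SE 0.08, adjusted p = 1.3e-15 by edgeR's quasi-likelihood test with Benjamini-Hochberg adjustment over all 16126 genes tested). For nspc-19 the CF1038 libraries had 8.41, 12.1 and 15.1 CPM and the N2 libraries 3.99, 6.05 and 10.2 CPM. Here 17 of 20 CF1038 libraries stood above every N2 library, and the log2 fold change was 0.98 (SE 0.09, edgeR adjusted p = 1.3e-13).

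For nspc-16, the most abundant of the 4 by count, the lowest, median and highest were 21.3, 33 and 46.9 CPM in CF1038 and 11.3, 18 and 31.7 CPM in N2. Of the CF1038 libraries, 13 of 20 were above every N2 library, and the log2 fold change was 0.91 (SE 0.1, edgeR adjusted p = 3.8e-11). For nspc-17 they were 16, 22.1 and 30.4 CPM in CF1038 and 9.29, 14 and 20.6 CPM in N2, with 12 of 20 CF1038 libraries above every N2 library. Its log2 fold change of 0.64 (SE 0.09, edgeR adjusted p = 4.3e-08) was the smallest of the 4. Over all genes tested, 18.0% were called higher in CF1038 and 20.7% lower, and the median log2 fold change was -0.01.

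The sum of the 4 genes was 89 ± 14.8 CPM in CF1038 (SD, n = 20) and 47.8 ± 9.08 CPM in N2 (SD, n = 30), a log2 fold change of 0.88 (SE 0.08). The sum ran between 64.1 and 114 CPM in CF1038 and between 34.5 and 69.4 CPM in N2, and 18 of 20 CF1038 libraries exceeded every N2 library. This value does not depend on how reads were split among the 4.

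**Figure D1:**
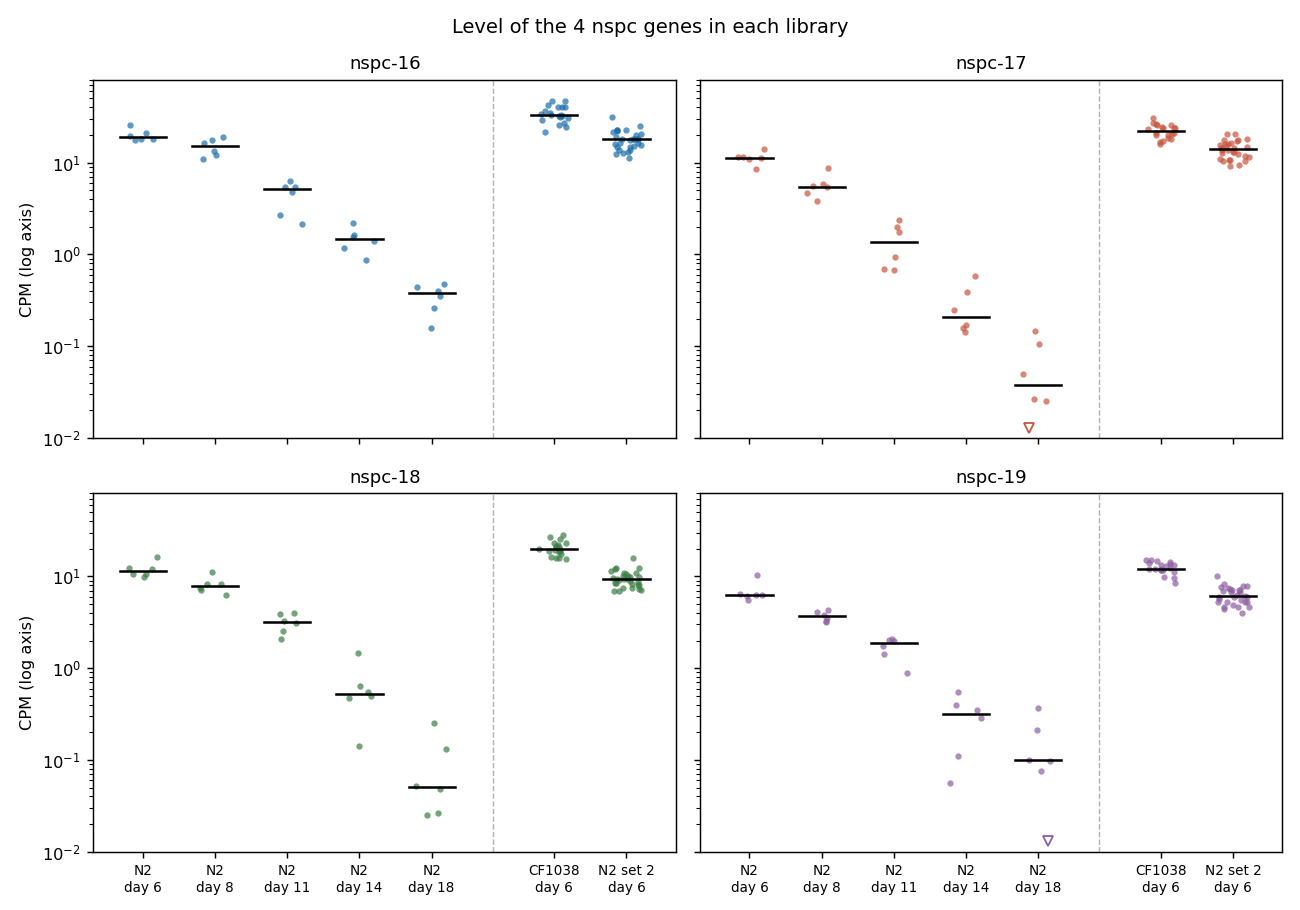
Level of each of the 4 genes in every library, in CPM on a log axis, with the 5 N2 ages on the left of the dashed line and CF1038 beside N2 set 2 on its right. Points are libraries, black bars are group medians, and open triangles at the bottom mark the 2 libraries with a count of 0. CF1038 medians lie above N2 set 2 in every panel (19.6 and 9.37 CPM for nspc-18), and the levels step down over the 5 ages.

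Most of the other nspc genes did not pass the test between the strains. The immediate neighbour nspc-20 averaged 52.3 ± 8.9 CPM in CF1038 and 50.1 ± 13.1 CPM in N2, a log2 fold change of 0.05 (SE 0.1, edgeR adjusted p = 0.69). Of the 14 other nspc genes 5 were called higher, 0 lower, and 9 did not pass the test, where 18% of all genes were called higher and 20.7% lower. The 5 became 8 without N2 libraries 21 to 30, and 2 when libraries 11 to 20 of each strain were used alone. Their median log2 fold change was 0.18 and their range -0.14 to 0.44, all below the smallest value among the 4 genes.

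All 5 that rose belong to the middle group. They were nspc-9 (log2 fold change 0.44, SE 0.1, edgeR adjusted p = 0.00027), nspc-12 (0.42, SE 0.11), nspc-10 (0.34, SE 0.1), nspc-13 (0.33, SE 0.09) and nspc-15 (0.22, SE 0.09, adjusted p = 0.036). The middle-group gene nspc-14 had 0.06 (SE 0.09, adjusted p = 0.6). The 7 left-group genes had values between -0.14 and 0.36, and none was called. The value with the widest SE, 0.36 (SE 0.42), belongs to WBGene00044357, 1 of a pair of genes that both carry the symbol nspc-2.

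**Figure D2:**
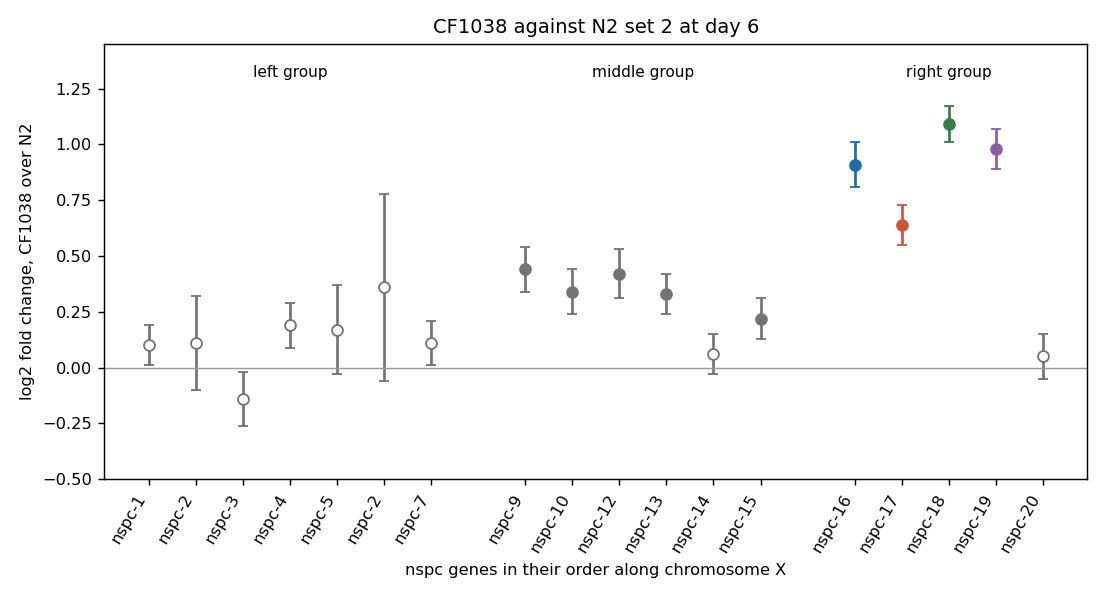
Log2 fold change of the 18 nspc genes in CF1038 over N2 set 2 at day 6 (vertical axis), with bars of 1 SE, in the order of the genes along chromosome X. Filled points passed an adjusted p under 0.05 and open points did not; the 4 coloured points, 0.64 to 1.09, stand above nspc-20 (0.05) and above the left and middle groups.

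In each library the level of a gene was also divided by that of nspc-20. This ratio was chosen after the values had been seen, so it is a description, with no test. The ratio of nspc-18 to nspc-20 had its lowest, median and highest at 0.297, 0.368 and 0.526 in CF1038 and at 0.109, 0.208 and 0.283 in N2, so all 20 CF1038 libraries stood above all 30 N2 libraries. The log2 ratio differed by 1.02 (SE 0.09). For nspc-16 all 20 CF1038 libraries were also above all N2 libraries, with medians of 0.644 in CF1038 and 0.384 in N2 and a log2 difference of 0.84 (SE 0.07).

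The ratio for nspc-17 had medians of 0.414 in CF1038 and 0.283 in N2 and again did not overlap, with a log2 difference of 0.58 (SE 0.05). For nspc-19 the medians were 0.234 in CF1038 and 0.138 in N2, 17 of 20 CF1038 libraries lay above every N2 library, and the log2 difference was 0.92 (SE 0.09). The ratio also moved with library number. For the sum of the 4 over nspc-20 it ran between 1.48 and 1.74 in CF1038 libraries 1 to 8 and between 0.649 and 0.863 in the N2 libraries of these numbers. It ran between 1.59 and 2.15 in CF1038 libraries 9 to 20, and between 0.937 and 1.24 in N2 libraries 9 to 20. The strains did not overlap within either run of numbers, whose limits were set after seeing the values. Since nspc-20 also held split counts in 100% of libraries, sharing of reads between it and the 4 genes can have moved these ratios, and its part was not tested.

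Set against the summed CPM of the 13 left and middle genes, the sum of the 4 was 0.273 ± 0.0181 in CF1038 (SD, n = 20) and 0.175 ± 0.0207 in N2 (SD, n = 30). The ratio ran between 0.244 and 0.323 in CF1038 and between 0.14 and 0.22 in N2, with no overlap. This is a description, since the ratio adds up chosen genes.

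**Figure D3:**
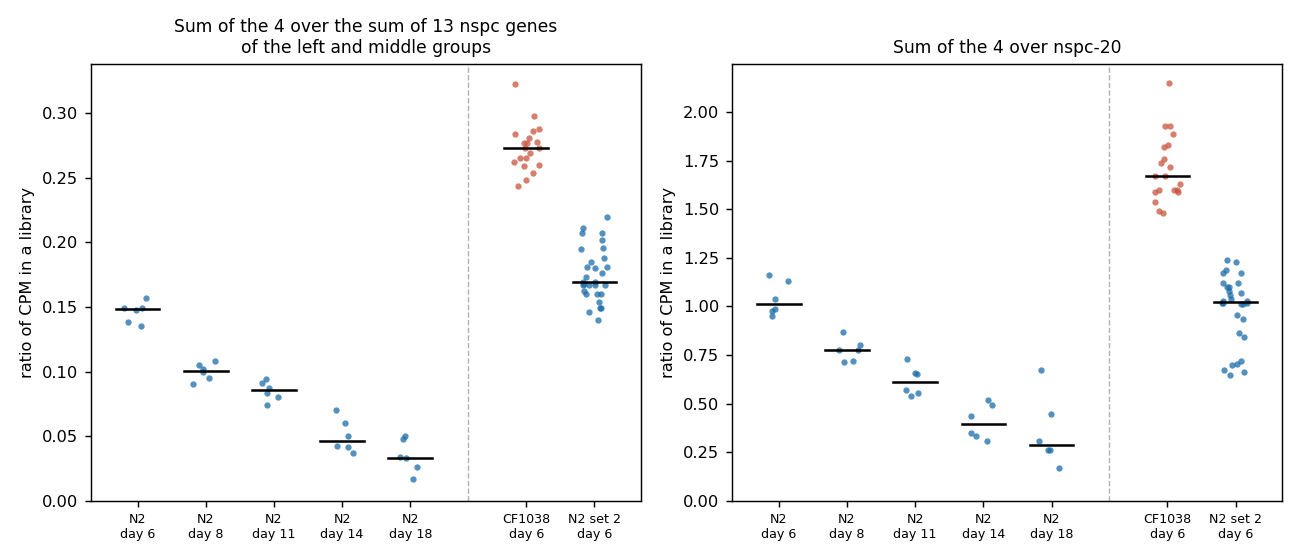
Summed CPM of the 4 genes divided, in the same library, by the summed CPM of the 13 left- and middle-group nspc genes (left panel) or by nspc-20 (right panel); points are libraries, bars are medians. CF1038 (orange) lies above N2 set 2 in both panels, 0.273 against 0.175 on average in the left one, and the ratio is lower at each older N2 age.

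None of the 5 flanking genes outside the family was called higher. Over all genes tested 18% were called higher and 20.7% lower, so the counts among these 5 are near that share. On the left, D1025.1 lies 869 bases away, and its log2 fold change in CF1038 was -0.18 (SE 0.04, edgeR adjusted p = 0.0017). D1025.10 was also lower, at -0.17 (SE 0.05, adjusted p = 0.013). The next gene on that side, gcsh-1, had -0.06 (SE 0.11, adjusted p = 0.68). To the right of nspc-20, T24C2.5 had -0.21 (SE 0.11, adjusted p = 0.11) and fbxa-81, an F-box gene, had -0.23 (SE 0.16, adjusted p = 0.25).

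Within a strain the 4 genes varied together to differing degrees. Over the 30 N2 libraries of set 2 Pearson's r of log2 CPM was 0.81 between nspc-18 and nspc-19, the highest pair, and 0.42 between nspc-17 and nspc-18, the lowest. Over the 20 CF1038 libraries the same pairs were again highest and lowest, at 0.87 and 0.56. These are descriptions over libraries of 1 strain and age, and genes that share reads cannot be fully independent. The part of shared reads in these values was not tested.

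The 20 CF1038 and 30 N2 libraries were also looked at in runs of 10 by library number, a view chosen after the values had been seen, because nspc-17 differed with the number in N2. Its share of the 4 genes' sum averaged 33.1 ± 3.6% in N2 libraries 1 to 10, 29.2 ± 2.36% in libraries 11 to 20 and 26.4 ± 3.4% in libraries 21 to 30 (SD, n = 10 each). In CF1038 it was 25.2 ± 2.67% in libraries 1 to 10 and 24.8 ± 2.39% in libraries 11 to 20. The sum itself was 87.1 ± 12.8 and 90.9 ± 17 CPM in those CF1038 runs, and 44.4 ± 8.19, 48.7 ± 10.4 and 50.3 ± 8.31 CPM in the 3 N2 runs. The mean sum was higher in both CF1038 runs than in each N2 run. The labels give all libraries the same batch value and do not say what the numbers stand for.

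With age, N2 worms had steadily less RNA of all 4 genes, and by day 18 almost none. The sum of the 4 averaged 50.1 ± 8.58 CPM at day 6, 32.4 ± 6.25 at day 8, 10.7 ± 3.44 at day 11, 2.67 ± 1.17 at day 14 and 0.637 ± 0.249 at day 18 (SD, n = 6 each). From day 8 on the ranges of successive ages did not overlap for the sum, and at day 8, 5 of 6 libraries were below every day-6 library. These values belong to the contrast that selected the genes and are given without a test.

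For nspc-16 the lowest, median and highest of the 6 libraries were 17.6, 18.9 and 26 CPM at day 6, 11, 15 and 19 at day 8, and 2.17, 5.1 and 6.27 at day 11. They were 0.876, 1.47 and 2.19 CPM at day 14 and 0.156, 0.376 and 0.474 CPM at day 18. The day-18 libraries were all below the day-14 ones. The log2 fold change against day 6 was -0.42 (SE 0.21) at day 8, -2.1 at day 11, -3.74 at day 14 and -5.76 (SE 0.28) at day 18.

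For nspc-17 the lowest, median and highest were 8.6, 11.3 and 14.1 CPM at day 6, 3.8, 5.48 and 8.77 at day 8, 0.674, 1.35 and 2.37 at day 11, and 0.144, 0.21 and 0.58 at day 14. At day 18 they were 0, 0.0382 and 0.147 CPM, or between 0 and 6 counts a library. The log2 fold change against day 6 was -0.99 (SE 0.27) at day 8 and -7.42 (SE 0.43) at day 18, in linear terms 171-fold lower. At day 18 this was rank 6 from the lowest of the 16710 genes tested. The ranks were 13 for nspc-18, 34 for nspc-16 and 42 for nspc-19. All 4 ranks follow from the selection of the genes and are not evidence of their own.

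For nspc-18 the values were 9.78, 11.3 and 16.2 CPM at day 6, 6.28, 7.82 and 11.1 at day 8, 2.08, 3.2 and 3.94 at day 11, and 0.141, 0.525 and 1.46 at day 14. At day 18 they were 0.0254, 0.0503 and 0.25 CPM, or 1 to 10 counts. The log2 fold change was -0.56 (SE 0.26) at day 8 and -6.93 (SE 0.39) at day 18. It was the gene whose day-18 value depended most on the libraries used, at -8.36 from libraries 4 to 6 of both ages.

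For nspc-19 the values were 5.54, 6.29 and 10.3 CPM at day 6, 3.15, 3.69 and 4.3 at day 8, 0.879, 1.86 and 2.1 at day 11, and 0.0565, 0.319 and 0.555 at day 14. At day 18 they were 0, 0.0995 and 0.368 CPM. Days 14 and 18 overlapped, with 1 of 6 day-18 libraries below every day-14 library. The log2 fold change was -0.88 (SE 0.28) at day 8 and -5.49 (SE 0.39) at day 18. The counts of 0, for nspc-17 and for nspc-19, were both in library 3 of day 18. There a count of 0 allows a level of up to 0.0824 CPM, from 3 counts and for counting error only. This limit uses the plain library total, without the further scaling between libraries that the levels have.

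For the sum, the change per day was largest between days 11 and 14, but the intervals were not tested against each other. Per day, the log2 level of the sum changed by -0.31 between days 6 and 8, -0.51 between days 8 and 11, -0.68 between days 11 and 14, and -0.5 between days 14 and 18. Over the whole intervals its log2 changes were -0.62 (SE 0.23), -1.54 (SE 0.23), -2.03 (SE 0.25) and -2.02 (SE 0.28). The genes differed among themselves. For nspc-19 the change per day was -0.85 between days 11 and 14 but -0.25 between days 14 and 18, whereas nspc-16 changed by -0.56, -0.54 and -0.51 in the last 3 intervals. The day-18 values rest on a median of 14.6 counts for nspc-16, 1.5 for nspc-17, 2 for nspc-18 and 4.2 for nspc-19, so the order of the genes at that age is not resolved.

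**Figure D4:**
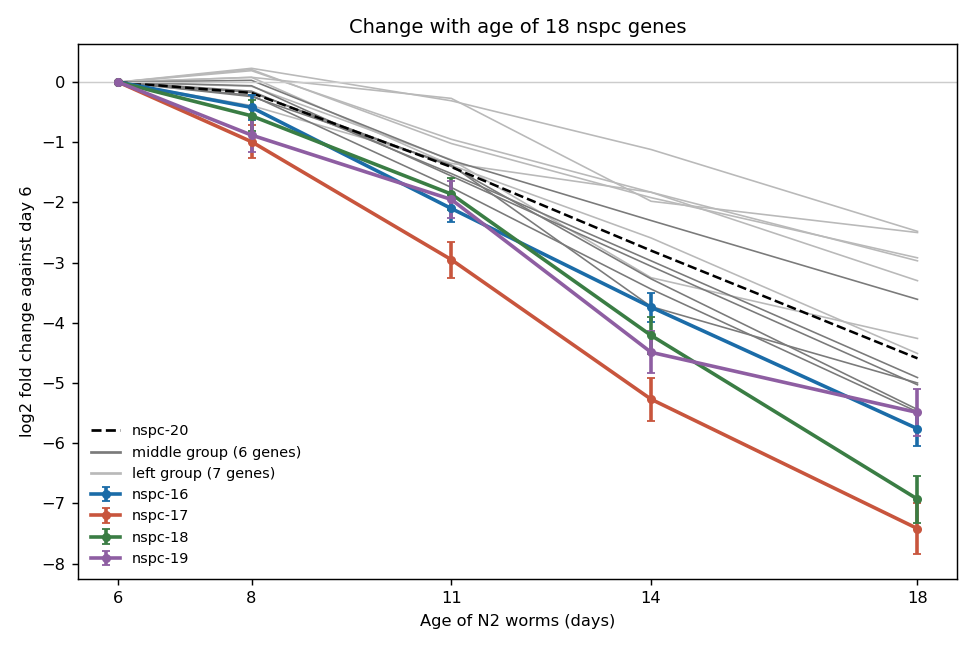
Log2 fold change against day 6 (vertical axis) at each age in days for the 18 nspc genes in N2. The 4 coloured lines, with bars of 1 SE, end between -7.42 and -5.49 at day 18, below nspc-20 (dashed, -4.59) and the left group. The line of nspc-19 (-5.49, SE 0.39) ends level with nspc-15 (-5.48, SE 0.3) and nspc-9 (-5.44, SE 0.31) of the middle group.

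The rest of the family was lower with age too. Of the 14 other nspc genes, 0 were called lower at day 8, 12 at day 11, 14 at day 14 and 14 at day 18, where over all genes tested 6.12%, 19.9%, 26.9% and 28% were called lower. Their median log2 fold changes were -0.07, -1.36, -2.69 and -4.39. At day 18 the 6 middle-group genes had a median of -5.01 and fell furthest in nspc-15 (-5.48, SE 0.3, edgeR adjusted p = 9.7e-16). The 7 left-group genes had a median of -2.97, and nspc-20 fell to 1.9 ± 0.632 CPM at day 18, against 48.3 ± 7.61 CPM at day 6 (log2 fold change -4.59, SE 0.29, adjusted p = 2.4e-14).

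The day-18 values just outside the 4 genes are thus those of nspc-15 at -5.48 and nspc-9 at -5.44, next to nspc-19 at -5.49. The sum of the 4 over that of the 13 left- and middle-group genes was 0.146 ± 0.0081 at day 6, 0.0999 ± 0.00653 at day 8, 0.0851 ± 0.00743 at day 11, 0.0502 ± 0.0127 at day 14 and 0.0346 ± 0.0128 at day 18. Over nspc-20 it was 0.353 ± 0.182 at day 18 against 1.04 ± 0.0854 at day 6. Both ratios follow from the selection and are not evidence of their own.

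Of the flanking genes outside the family, gcsh-1 fell at day 18, to 1.76 ± 0.45 CPM at day 18 against 7.41 ± 1.67 CPM at day 6 (log2 fold change -1.99, SE 0.21, edgeR adjusted p = 1.2e-09). The other 4 did not pass the test at day 18, where 28% of all genes were called lower and 29% higher. D1025.1, the nearest on the left, had 9.48 ± 0.808 CPM at day 18 and 10.7 ± 0.932 CPM at day 6. The log2 value for T24C2.5 was 1.01 (SE 0.19, adjusted p = 5.4e-05) at day 14 and -0.01 (SE 0.19) at day 18.

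By the counts as split, the division of the sum among the 4 genes shifted with age. These shares depend on how reads were split among the genes, and that part was not tested. At day 18 they rest on a median of 1.5 counts for nspc-17 and 2 for nspc-18. The share of nspc-17 averaged 22.6 ± 1.6% at day 6, 17.4 ± 2.6% at day 8, 12.6 ± 3.4% at day 11, 10.6 ± 4.1% at day 14 and 7.8 ± 7.1% at day 18 (SD, n = 6 each). That of nspc-16 was 57.7 ± 8.3% at day 14 against 40.2 ± 1.8% at day 6. The share of nspc-18 reached 30.3 ± 3.8% at day 11 against 23.7 ± 0.7% at day 6, and was 14.2 ± 10.9% at day 18. Between the strains the shares moved less. That of nspc-17 was 25 ± 2.5% in CF1038 and 29.6 ± 4.1% in N2 set 2, and that of nspc-18 was 22.9 ± 1.9% in CF1038 and 19.9 ± 2.2% in N2 set 2.

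**Figure D5:**
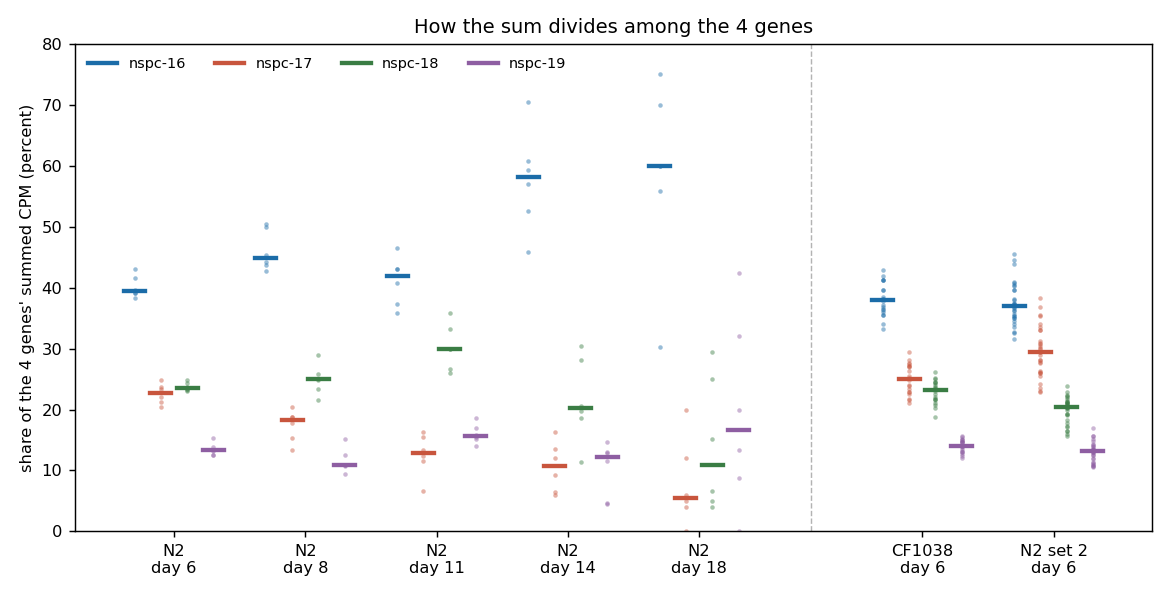
Share of each of the 4 genes in their summed CPM, in percent, by group; points are libraries and bars are medians. The nspc-17 share is on average lower at each older age (mean 7.8% at day 18 against 22.6% at day 6). Its ranges overlap at day 14 (5.9% to 16.3%) and day 18 (0% to 20%), and in N2 set 2 it spreads between 22.8% and 38.3%. All shares depend on how reads were split among the genes.

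The 2 sets of N2 libraries at day 6 differed in this division although strain and age were the same. The nspc-17 share was 22.8 to 38.3% in set 2 and 20.5 to 24.8% in the time course. By level, 15 of the 30 set-2 libraries were above every time-course library for nspc-17, while 19 of 30 were below every one of them for nspc-18. The sum was 47.8 ± 9.08 CPM in set 2 and 50.1 ± 8.58 CPM in the time course. The higher level in CF1038 stayed when all 36 N2 libraries served as the comparison.

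Per kilobase of exon, nspc-16 was the highest of the 4, at 84.1 CPM per kb in CF1038 and 44.4 in N2 set 2. It was followed by nspc-17 (58 in CF1038 and 36.9 in N2), nspc-18 (45.8 and 21.4) and nspc-19 (33.6 and 16.9). In CF1038 nspc-16 exceeded nspc-17 in 20 of 20 libraries, nspc-17 exceeded nspc-18 in 19, and nspc-18 exceeded nspc-19 in 20. In N2 set 2 the same steps held in 24, 30 and 28 of 30 libraries. At days 8 and 11 of the time course the middle step was the other way round, with nspc-17 below nspc-18 in 6 of 6 libraries at each age. For scale, nspc-20 stood at 138 CPM per kb in CF1038 and 133 in N2, above each of the 4. These orders depend on how reads were split among the genes, and that part was not tested. Levels were divided by the full exon length, with no adjustment for read length.

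At day 11 the libraries numbered 4 to 6 held less than those numbered 1 to 3 for all 4 genes, without overlap. How many of all genes separated in this way was not counted. The 4 genes can also share reads, so this describes these libraries and is not a result about the genes. The sum averaged 7.92 CPM in those numbered 4 to 6 and 13.5 CPM in the first 3, a ratio of 0.587, and the gene ratios ran between 0.377 for nspc-17 and 0.691 for nspc-18. Divided by the 13 left- and middle-group nspc genes, the sum did overlap at day 11. It was 0.0943, 0.0801 and 0.0911 in libraries 1 to 3, and 0.0837, 0.0872 and 0.0739 in libraries 4 to 6. At day 14 the sum was 1.59 times as high in libraries 4 to 6 as in libraries 1 to 3, with overlap, and at day 18 the ratio was 0.988. For scale, the mean sum at day 11 was 0.33 of that at day 8, and at day 14 it was 0.249 of that at day 11.

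The genes whose level followed the 4 most closely were sought in each set of N2 libraries, by Pearson's r with the mean log2 CPM of the 4. Over the 30 libraries of N2 set 2, among 13119 genes, the highest outside the family were spp-14 (0.77), nduc-2 (0.74), spp-10 (0.72), scl-5 (0.68) and spp-15 (0.68). The spp genes encode saposin-like proteins, small lipid-binding proteins of which some act against bacteria. Inside the family nspc-9 (0.85), nspc-13 (0.82), nspc-10 (0.81) and nspc-15 (0.81), all of the middle group, came before any of these. The neighbour nspc-20 had 0.55 and stood at rank 86. Over the 20 CF1038 libraries, looked at in addition, nspc-14 (0.95) came first in the family and nspc-20 had 0.84.

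Over the 30 time-course libraries, where age drives most of the spread, vmo-1 (0.97), T28D6.3 (0.96), col-139 (0.95), asp-14 (0.95) and ZK896.5 (0.95) led outside the family, among 13389 genes. col-139 encodes a cuticle collagen and asp-14 an aspartyl protease. Here nspc-15 (0.99) and nspc-20 (0.98) were among the closest relatives. These values are descriptions over libraries of 1 study, and in the time course any gene with a steady drop scores high.

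Other nsp groups are given for comparison, from lists of symbols. At day 18, 7 of 7 tested nsph genes rose, where 29% of all genes were called higher. The 9 nspd genes tested rose too, but in the comparison of strains at day 6 only 8 were tested. Some nspd genes may have passed the filter with age only through the ages where they are high. Their count is therefore not set against that share. Among the nspd and nsph genes, nspd-10 had a log2 fold change of 8.29 (SE 0.38, edgeR adjusted p = 1.2e-17) and nsph-2 had 6.93 (SE 0.35, adjusted p = 7e-17). The 3 nspa genes tested, of 10 in the table, rose too. In the comparison of strains at day 6, 0 of the 10 passed the filter on low counts. The 3 may have passed it with age only through the ages where they are high, so their count is not set against that share. Of 5 nspe genes 1 rose, nspe-7 (2.04, SE 0.88, adjusted p = 0.049), and no nspb or nspf gene passed the filter on low counts. In CF1038, where 18% of all genes were called higher and 20.7% lower, 7 of 8 tested nspd genes rose, led by nspd-1 (1.4, SE 0.22, adjusted p = 8.7e-07), and 5 of 7 nsph genes rose. Of 5 nspe genes 1 was lower, nspe-5 (-1.71, SE 0.3, adjusted p = 1e-05), and the 2 nspb genes tested were not called. Most nspd and nsph genes were thus higher both in CF1038 and at day 18, whereas the 4 nspc genes were higher in CF1038 and lower at day 18. The middle-group genes nspc-9, nspc-10, nspc-12, nspc-13 and nspc-15 were also called higher in CF1038 and lower at day 18. For the 4, the lower level at day 18 follows from their selection.

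Some tissue markers moved as well, and their part in these results was not tested. At day 18, 28% of all genes were called lower and 29% higher, so counts such as 2 of 6 are near that share. At day 18, 4 of 8 hypodermis and cuticle markers, 7 of 8 intestine, 5 of 6 muscle, 2 of 6 neuron, 3 of 6 germline and oocyte and 1 of 2 gonad sheath markers were lower, and 6 of 6 sperm markers were higher. None of 4 pharynx and of 3 vulva and uterus markers was lower there, and 1 of each of these lists, of the neuron list and of the germline list was higher. Summed hypodermis markers ran between 450 and 851 CPM at day 18 and between 1309 and 2053 CPM at day 6, and intestine markers between 14435 and 23626 CPM at day 18 and between 46524 and 65598 CPM at day 6. Muscle markers ran between 382 and 738 CPM at day 18 and between 1560 and 2982 CPM at day 6, and sperm markers between 156 and 370 CPM at day 18 and between 2.96 and 7.94 CPM at day 6.

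In CF1038, against 18% of all genes called higher and 20.7% lower, 0 of 8 hypodermis markers were higher and 1 was lower, and of 8 intestine markers 2 were higher and 3 lower. Of 6 germline and oocyte markers 4 were higher, and of 6 sperm markers 4 were higher and 1 lower. No marker of muscle, neurons, pharynx, vulva and uterus or gonad sheath was higher, and 1 of 6, 3 of 6, 2 of 5, 2 of 3 and 2 of 2 were lower. Summed germline markers ran between 3188 and 4835 CPM in CF1038 and between 1970 and 4952 CPM in N2, and summed hypodermis markers between 311 and 1999 CPM in CF1038 and between 624 and 1668 CPM in N2. Sperm markers ran between 3.55 and 11.9 CPM in CF1038 and between 2.22 and 6.17 CPM in N2. No marker was at 0 in every library.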

How the data were processed

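The deposited table holds expected counts per gene for 80 whole-worm RNA-seq libraries. Per the submitters' processing notes, the authors used FastQC, STAR 2.7.11b and RSEM 1.3.3 with WBcel235. The sources used here name no kit, strandedness or annotation release. Not whole were 2.73% of the values, and the table was rounded to integers. Symbols and coordinates came from an Ensembl annotation of the same build.

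Groups follow the labelled strain and age, with the 36 day-6 N2 libraries split into 2 sets by library name. CF1038 was fitted with N2 set 2, and the 5 ages together, each in edgeR 4.0.16 (filterByExpr, TMM, robust quasi-likelihood fit, F test). A gene was called at p under 0.05 after Benjamini-Hochberg adjustment over all genes tested. SE is the absolute log2 fold change over the square root of F. CPM use TMM over all 80 libraries. The sum of the 4 genes was fitted as 1 row. Likeness used log2 CPM with a prior count of 2 and genes of mean CPM of at least 1. The procedure was tested on simulated counts. Totals of 34443150 to 44161451 counts a library limit the lowest levels. The limit given for a count of 0 uses such a total without TMM and covers counting error only.

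Named genes are the 4, every other nspc gene, the 3 protein-coding genes on each side, 2 genes of smallest adjusted p in each other nsp group and comparison, and the 5 closest in likeness. The members, lists and markers were chosen with earlier results of these data known. Alternatives were edgeR's RLE size factors in place of TMM, DESeq2 1.42.0 in place of edgeR, and no filter on low counts. Others were a replicate block, other N2 sets, parts of the libraries and leaving out each replicate. The ratio to nspc-20 and the view by library number were chosen after seeing the data. R 4.3.3, Python 3.11.15 and matplotlib 3.10.9 were used.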

Additional observations from a re-analysis of the deposited data

Results flagged for a closer look

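In the N2 time course, library 5 of day 6 stood apart from its 5 companions for nspc-19, at 10.3 CPM, and for the sum of the 4 genes, at 66.5 CPM. Library 5 of day 14 stood apart for nspc-18, at 1.46 CPM. Each was the highest library of its group, with a gap to the next that was large for 6 samples. Of 25 groups looked at, 3 were picked out in this way, and chance picks about 1 in 20.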

How the results depend on the processing

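Of 136 recomputed values under other settings, 130 kept their direction and their side of the threshold or moved little. The log2 fold change in CF1038 ran over 8 alternatives between 0.89 and 1.08 for nspc-16, 0.57 and 0.7 for nspc-17, 0.99 and 1.28 for nspc-18 and 0.88 and 1.16 for nspc-19, with largest adjusted p of 6.6e-05, 0.0033, 1.1e-05 and 7.2e-05. At day 18 the 13 alternatives gave -5.89 to -5.64, -7.83 to -7.18, -8.36 to -6.16 and -6.05 to -5.24. The lowest nspc-18 value, -8.36, came from libraries 4 to 6, and the sum in place of nspc-17 gave -6.22. The number of other nspc genes called higher in CF1038, 5, became 8 without N2 libraries 21 to 30 and 2 in libraries 11 to 20, and the cause was not tested.

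The labels give library numbers no meaning, so they were not taken as pairs. Deviations of same-numbered libraries correlated between -0.19 and 0.09 over the ages, and between CF1038 and N2 between -0.3 and 0.62, over 0.1 for 15 of 20 numbers, with 3 of 20 libraries closest to their own number. With the number as a replicate block, on 20 N2 libraries only, 10274 genes were called in CF1038 in place of 6238 (9063 on the same libraries with no block), and 8 other nspc genes were called higher. The split of calls higher and lower in CF1038 was 2897 and 3341, against 3204 and 3101 with edgeR's RLE size factors. Depth limits day 18, where nspc-17 had at most 6 counts.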
